A study of Caenorhabditis elegans with 6 samples.

Results

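The proteasome is the barrel-shaped protease that degrades ubiquitin-tagged proteins in the cytosol and nucleus. Its genes were found by their symbols in the deposited table, as pas-1 to pas-7, pbs-1 to pbs-7, rpt-1 to rpt-6 and every rpn gene, which gave 33 of 20189 protein-coding genes. They comprise 14 genes of the core particle and 19 of the regulatory particle, and all 33 passed the filter on low counts. Ribosome footprints, the mRNA stretches covered by ribosomes, had been counted on every gene in 6 libraries from whole L4 hermaphrodites of Caenorhabditis elegans. All animals were rpl-36A(P55Q)/mIn1 heterozygotes, with 1 mutant copy of a large-subunit ribosomal protein gene over a balancer chromosome. Ribosomes with a changed proline at this site resist the elongation inhibitor cycloheximide (CHX) in other eukaryotes. The 3 no CHX libraries came from animals grown at 23 °C for 2 days without the drug, and the 3 CHX libraries from animals kept at 23 °C from eggs on 500 µg/ml for 3 days. Drug and culture time therefore cannot be told apart in any difference below, and both groups carried the mutation, so no wild-type comparison was possible.

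In the core particle, outer rings of PAS proteins (alpha subunits) gate the entry to inner rings of PBS proteins (beta subunits), of which PBS-1, PBS-2 and PBS-5 cut peptide bonds. The regulatory particle has a base, where a ring of RPT ATPases unfolds the substrate beside the large scaffold proteins RPN-1 and RPN-2, and a lid of further RPN proteins. RPN-10 and RPN-13 bind ubiquitin, and the lid's metalloprotease RPN-11 removes it. In worms as in mammals, a damaged or inhibited proteasome is known to raise the transcription of its own subunit genes, through the factor SKN-1A. No protein or promoter sequences were used here.

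The libraries held 1601009 to 1901815 reads. Library pairs had Spearman correlations of 0.967 to 0.975 within groups and 0.876 to 0.894 between them. Levels are given as CPM, the reads of a gene relative to the library's reads on tested genes after TMM scaling, a correction for library composition. The mutated gene, rpl-36.A, fell from 879 to 1006 CPM without CHX to 586 to 719 CPM with it (log2 fold change -0.50, adjusted p = 5.04e-04 by edgeR). Its counts do not separate the mutant copy from the balancer copy. Among cell type markers, 13 of 13 tested oocyte and eggshell genes were higher with CHX, with summed levels of 647 to 860 CPM without it and 5815 to 6575 CPM with it. Of 10 tested sperm markers 7 were lower, with summed levels of 396 to 433 CPM and 215 to 263 CPM. Of 10 markers of the germline at large 6 were lower and 2 higher, from summed levels of 3018 to 3046 CPM to 2083 to 2304 CPM. Markers of body wall muscle (5 of 7 lower, 12364 to 13477 CPM against 9351 to 10341 CPM) and of intestine (4 of 7 lower, 3614 to 4369 CPM against 2813 to 3631 CPM) also moved. Of the hypodermis markers 1 of 7 was higher (2082 to 2355 CPM against 1842 to 2719 CPM). Of the neuron markers 2 of 8 were higher (318 to 386 CPM against 413 to 454 CPM). Neither list had a member called lower by edgeR, while DESeq2 called 1 hypodermis marker lower. DESeq2 also called 0 neuron markers and 0 markers of the germline at large higher, where limma-voom called 2 and 2. For comparison with these marker counts, edgeR called 22.2% of all tested genes higher and 20.0% lower. No marker of these lists lacked reads altogether. In such whole-animal samples, fewer cells of a type and less RNA per cell cannot be told apart, and the part of these shifts in the proteasome values was not tested.

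Relative to the reads of each library, footprints on most proteasome genes stayed close to their untreated level. Such relative levels do not give the absolute amount of synthesis. Without mRNA libraries, mRNA abundance and translation cannot be told apart. None of the 33 genes rose and 7 fell, namely pas-1, pas-7, pbs-3, rpt-6, rpn-5, rpn-8 and rpn-6.2 (edgeR's quasi-likelihood test, with p adjusted by Benjamini-Hochberg over 10632 tested genes and calls under 0.05). Of all tested genes, 22.2% rose and 20.0% fell, together 42.2%. The share of falling members (21.2%) was near that of all tested genes, and the share of rising members was below it. Among 876 tested genes of similar CPM, described below, 368 fell and 143 rose, together 58.3%. No rise was found either at an unadjusted p under 0.05 (0 genes), with DESeq2 (0 genes) or with limma-voom (0 genes). The fallers numbered 5 with DESeq2, which did not call pas-1 and pbs-3, and 7 with limma-voom. Without CHX replicate 1 the fallers numbered 4, and against a 1.2-fold change 1. The fallers apart from rpn-6.2 lost between 16.3% and 25.4% of their level. The other 26 genes had log2 fold changes of CHX over no CHX from -0.24 to 0.14, of which 18 were negative.

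The median log2 fold change of the 33 genes was -0.06, against 0.03 for all tested genes. Their interquartile range was 0.20 on the log2 scale, against 0.83 for all tested genes. For 31 of the 33 genes, the whole 95% interval of the change lay within 1.5-fold in either direction, which held for 24.0% of all tested genes. The exceptions were rpt-6 and rpn-6.2. Better counted genes have narrower intervals, so the same was read in the 876 tested genes whose mean CPM lay within the range of the 32 members other than rpn-6.2 (172 to 501 CPM), a range set after the values were seen. In that range, 47.6% of genes had such an interval, 58.3% were called (143 higher and 368 lower), and the median log2 fold change was -0.22. The interquartile range of these genes was 0.60, against 0.19 for the 32 members among them. Of those 32 members, 6 were called (18.8%), all lower.

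**Figure D1:**
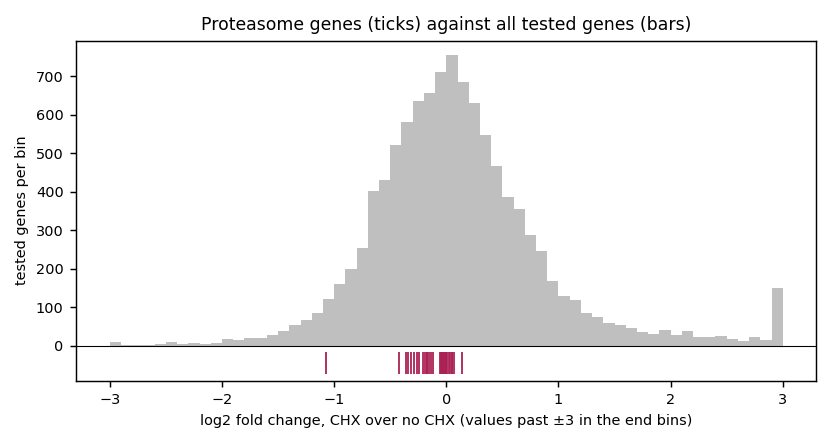
The grey bars count all 10632 tested genes by log2 fold change of CHX over no CHX in steps on the x axis, with more extreme values placed in the end bins, and the ticks under the axis mark the 33 proteasome genes. All ticks but that of rpn-6.2 (-1.07) lie between -0.42 and 0.14.

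As a share of all counted reads, the 33 genes took 0.838%, 0.903% and 0.933% in no CHX replicates 1 to 3. They took 0.835%, 0.896% and 0.870% in CHX replicates 1 to 3. The group means were 0.891% ± 0.0487 and 0.867% ± 0.0304 (SD, n = 3 each), and the groups overlapped. Exact (Clopper-Pearson) 95% intervals extended at most 0.0146 percentage points to either side of a library's share, and they cover counting error only. By subcomplex, the share of the alpha ring was 0.187% ± 0.0110 without CHX and 0.174% ± 0.00839 with it, and that of the beta ring 0.174% ± 0.00839 and 0.169% ± 0.00553. The ATPases took 0.172% ± 0.006065 and 0.163% ± 0.00284, and the lid 0.226% ± 0.0163 and 0.219% ± 0.00899. The scaffold and receptor genes of the base took 0.134% ± 0.00855 and 0.1416% ± 0.00660. For every subcomplex the groups overlapped in this share, which has no TMM scaling. As summed CPM after TMM scaling, the alpha ring had 1845 to 2056 CPM without CHX and 1595 to 1785 CPM with it, without overlap. The summed levels of the ATPases did not overlap either (1714 to 1822 CPM against 1568 to 1659 CPM). Those of the beta ring, the lid, and the scaffold and receptor genes overlapped.

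**Figure D2:**
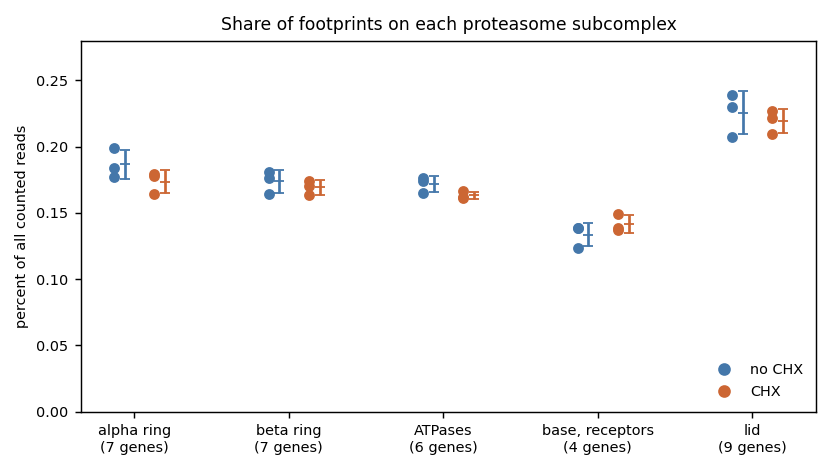
Each point is the percent of a library's counted reads that fell on 1 subcomplex, with no CHX in blue and CHX in orange, and the bars beside the points give the mean and SD of 3 libraries. In each of the 5 subcomplexes the blue and orange points overlap.

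The subunit genes also varied together between libraries of the same group. In no CHX replicate 1, 25 of the 33 genes had their lowest level of that group, against 33.01% of all tested genes. In no CHX replicate 3, 24 had their highest, against 36.2%. With the drug, 25 were lowest in CHX replicate 1, against 38.8%, and 21 were highest in CHX replicate 2, against 35.9%. The members are therefore not independent of each other, and why they varied together was not tested. Each library has 1 scaling factor, which applies to all tested genes alike, and its part in this shared variation was not tested. Leaving out no CHX replicate 1 moved the median log2 fold change of the 33 genes from -0.06 to -0.18, and leaving out CHX replicate 1 moved it to -0.02.

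**Figure D3:**
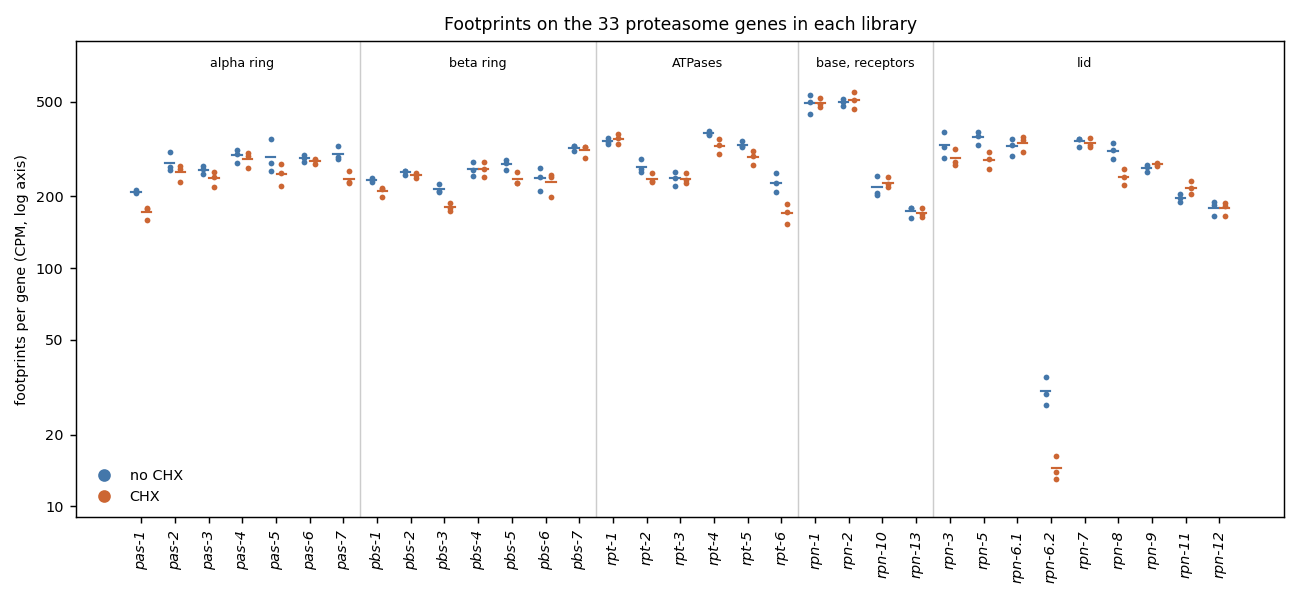
Each point is 1 library's footprint level of a gene in CPM on a log axis, with no CHX in blue and CHX in orange, and the short lines are the means of 3 libraries. The 33 genes are ordered by subcomplex, and rpn-6.2 is the one gene below 100 CPM. Levels are not divided by coding length, so genes should be compared between groups and not with each other.

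Of the 7 alpha ring genes, 2 fell and the others did not pass the test. For this and the other subcomplex counts, 20.0% of all tested genes fell, and 368 of the 876 genes in the CPM range given above. The pas-7 gene lies on chromosome II of WBcel235, from 10098782 to 10099854 on the minus strand (WBGene00003928). It had 292, 286 and 326 CPM in no CHX replicates 1 to 3 and 227, 256 and 229.8 CPM in CHX replicates 1 to 3. All CHX libraries were below all no CHX libraries. The mean went from 301 ± 21.6 to 238 ± 15.8 CPM (SD, n = 3 each), which is a log2 change of -0.34 (SE 0.0998, adjusted p = 0.0101 by edgeR).

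The pas-1 gene (WBGene00003922, chromosome V, 14421566 to 14422618, minus strand) had 209, 212 and 206 CPM without CHX and 159, 179 and 177 CPM with it, again without overlap. Its log2 fold change was -0.29 (SE 0.101, adjusted p = 0.0310 by edgeR). The call ended without CHX replicate 1 (-0.23, adjusted p = 0.118 by edgeR). It also ended without CHX replicate 2 (-0.31, adjusted p = 0.0521) or 3 (-0.31, adjusted p = 0.0576), where the change was no smaller, and over all alternatives the adjusted p ran from 0.0142 to 0.346. Of the genes that did not pass, pas-6 had the smallest change, with 279, 289.8 and 298 CPM without CHX and 273, 286 and 285 CPM with it (log2 fold change -0.04, 95% interval -0.23 to 0.16). The pas-5 gene had a log2 fold change of -0.24 (interval -0.50 to 0.01), in which no CHX replicate 3 stood high at 347 CPM against 275 and 257 CPM. The values of pas-2, pas-3 and pas-4 were -0.13, -0.12 and -0.05.

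Of the 7 beta ring genes 1 fell. The genes of the peptide-cutting subunits, pbs-1, pbs-2 and pbs-5, had log2 fold changes of -0.16 (95% interval -0.36 to 0.05), -0.04 (-0.24 to 0.16) and -0.21 (-0.42 to -0.0033), and none of the 3 passed. For pbs-5, which encodes the chymotrypsin-like subunit, the levels were 258, 275 and 283 CPM without CHX and 228, 253 and 227 CPM with it. These groups did not overlap, and neither did those of pbs-1, but the adjusted p-values were 0.0952 for pbs-5 and 0.212 for pbs-1 (edgeR).

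The faller was pbs-3 (WBGene00003949, minus strand of chromosome II, 4954480 to 4955427), a beta subunit without proteolytic activity. It had 211, 209 and 226 CPM without CHX and 174, 188 and 178 CPM with it, a log2 fold change of -0.26 (SE 0.0996, adjusted p = 0.0462 by edgeR). The call was at the edge of the threshold. Leaving out no CHX replicate 3 ended it (-0.26, adjusted p = 0.0541 by edgeR), as did leaving out CHX replicate 1 (-0.23, adjusted p = 0.119), 2 (-0.29, adjusted p = 0.0701) or 3 (-0.25, adjusted p = 0.117). Over all alternatives its adjusted p ran from 0.0234 to 0.443. At the other end, pbs-4 had 243, 257 and 278 CPM without CHX and 240.3, 279.5 and 259.6 CPM with it (log2 fold change 0.0015, interval -0.21 to 0.21), so that its groups overlapped. The values of pbs-6 and pbs-7 were -0.06 and -0.04.

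**Figure D4:**
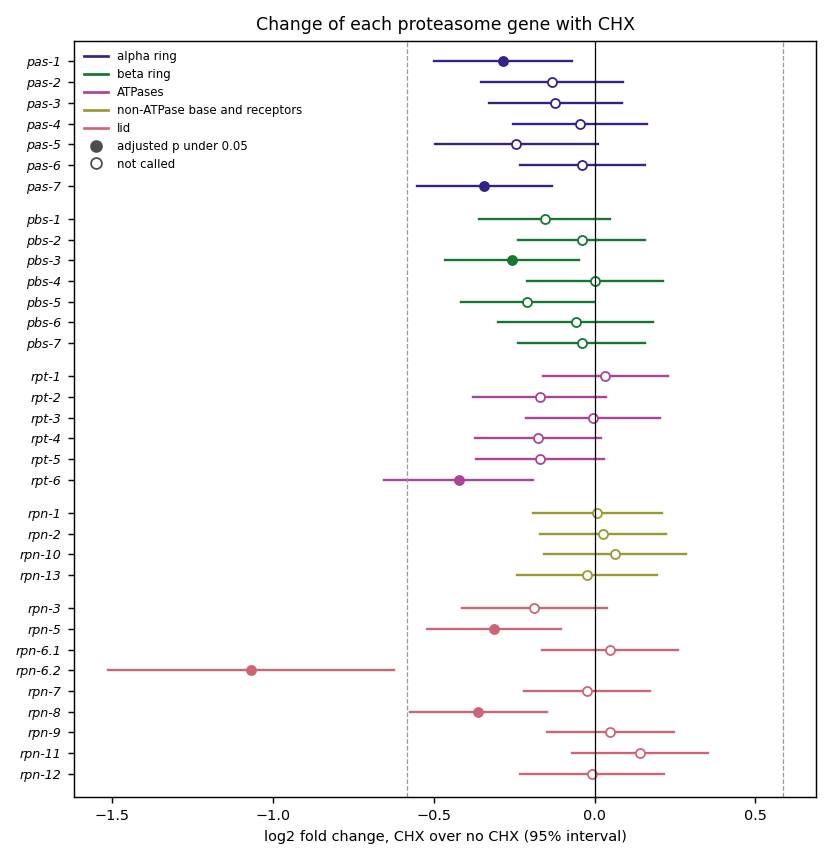
Points give the log2 fold change of CHX over no CHX for each proteasome gene from the fit to 6 libraries, lines the 95% interval, colours the subcomplex, and filled points the 7 genes with an adjusted p under 0.05. Dashed lines stand at 1.5-fold, and the intervals of rpt-6 and rpn-6.2 reach past the left one.

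Among the 6 ATPase genes, rpt-6 fell, and its change was the largest of the genes whose products form the ring. The rpt-6 gene (WBGene00004506, chromosome III, 12370456 to 12372625, plus strand) had 209, 250.3 and 227 CPM without CHX and 172, 154 and 185 CPM with it. The highest CHX library was below the lowest no CHX library. The mean went from 229 ± 20.9 to 170.4 ± 15.8 CPM (SD, n = 3 each), which is a log2 change of -0.42 (SE 0.110, 95% interval -0.65 to -0.19, adjusted p = 0.0049 by edgeR). Its share of all proteasome reads was 2.39%, 2.72% and 2.35% without CHX and 2.12%, 1.72% and 2.14% with it.

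The other ATPase genes did not pass. The rpt-1 gene had 330.4, 353 and 339 CPM without CHX and 331, 365 and 351 CPM with it (log2 fold change 0.03, interval -0.16 to 0.23). For rpt-2, rpt-4 and rpt-5 the CHX libraries were all below the no CHX libraries, with log2 fold changes of -0.17, -0.18 and -0.17, and rpt-3 had -0.01. In all, 12 of the 33 genes had groups that did not overlap, each with CHX below. Of all tested genes, 24.7% had CHX below and 27.7% had CHX above, together 52.5%. Of the 876 genes in the CPM range of the members other than rpn-6.2, 422 had CHX below and 175 above, together 68.2%. Of the 32 members in that range, 11 (34.4%) had groups that did not overlap.

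The genes of the base scaffold and of the ubiquitin receptors stayed near their untreated levels. The test called 0 of these 4 (edgeR, and likewise 0 by limma-voom or DESeq2 and 0 at an unadjusted p under 0.05). Their log2 fold changes ran from -0.02 to 0.06. The receptor gene rpn-10, which hermaphrodite worms are known to need for making sperm, had 204, 207 and 244 CPM without CHX and 218, 241 and 226 CPM with it (0.06, interval -0.16 to 0.28). The other receptor gene, rpn-13, had 162, 179 and 178 CPM without CHX and 164, 179 and 169 CPM with it (-0.02, interval -0.24 to 0.20). The scaffold genes rpn-1 and rpn-2 had means of 491 ± 44.3 and 497 ± 17.3 CPM without CHX and 494 ± 23.0 and 506 ± 41.8 CPM with it (SD, n = 3 each), changes of 0.01 and 0.03.

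Of 9 lid genes 3 fell, against 20.0% of all tested genes and 368 of the 876 genes in the CPM range given above. Of these 3, rpn-6.2 lies below that range. The rpn-8 gene (WBGene00004464, chromosome I, 4175319 to 4177271, plus strand) encodes the partner that binds RPN-11 in the deubiquitinating pair. It had 287, 312 and 333 CPM without CHX and 223, 242 and 261 CPM with it, a log2 fold change of -0.36 (SE 0.101, adjusted p = 0.00824 by edgeR). The catalytic partner rpn-11 had 189.6, 197 and 205 CPM without CHX and 204.5, 231 and 217 CPM with it. Its log2 fold change of 0.14 was the highest of the 33, but the groups overlapped and the test was not passed (interval -0.07 to 0.35, adjusted p = 0.272 by edgeR).

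The structural lid gene rpn-5 (WBGene00004461, minus strand of chromosome II, 4696419 to 4698427) had 329.8, 357 and 374 CPM without CHX and 262, 307 and 287 CPM with it, without overlap (-0.31, SE 0.0987, adjusted p = 0.0167 by edgeR). That call ended without CHX replicate 1 (-0.25, adjusted p = 0.0736 by edgeR, range over all alternatives 0.00769 to 0.261). The other structural lid genes rpn-3, rpn-7, rpn-9 and rpn-12 did not pass, with values of -0.19, -0.03, 0.05 and -0.01.

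The paralogs rpn-6.1 and rpn-6.2, both genes of the lid subunit that braces the lid against the core particle, had unlike changes. The rpn-6.1 gene, whose overexpression is known to lengthen life in worms, had 294, 328 and 349.7 CPM without CHX and 308, 344 and 353 CPM with it, with overlapping groups (log2 fold change 0.05, interval -0.16 to 0.26). The rpn-6.2 gene (WBGene00010309, chromosome III, 8999828 to 9001973, minus strand) had 42, 52 and 62 reads without CHX and 25, 21 and 31 reads with it. That is 26.6, 29.7 and 34.8 CPM against 13.97, 13.1 and 16.2 CPM, with every CHX library below every no CHX library.

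Its mean went from 30.4 ± 4.12 to 14.4 ± 1.62 CPM (SD, n = 3 each), which is a log2 change of -1.07 (SE 0.212, interval -1.51 to -0.62, adjusted p = 5.95e-04 by edgeR). It was called under all 16 alternatives, among them the test against a 1.2-fold change, which no other member passed. Reads on rpn-6.2 were 9.05%, 9.06% and 9.95% of those on rpn-6.1 without CHX and 4.54%, 3.80% and 4.59% with it. The log2 of this ratio differed by -1.12 between the groups (exact permutation test, two-sided p = 0.1, the smallest that 3 against 3 libraries allow). The sperm markers given above fell as well, and their part in the rpn-6.2 value was not tested.

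The 33 genes lie on chromosomes I (10), II (7), III (8), IV (3) and V (5). None was on X, which holds 13.8% of the genes in the table. By the positions in the table, no member overlapped another coding gene on its own strand, and 10 overlapped one on the opposite strand, among them the fallers pas-7 (with lact-2), pbs-3 (with ndx-3) and rpt-6 (with glrx-5). Whether strand was used in counting is not given in the sources used here, so their counts may hold reads of the partner. The fallers pas-1, rpn-5, rpn-8 and rpn-6.2 overlapped no coding gene. The rpn-12 gene (chromosome II, 11653096 to 11654194, plus strand) starts just beyond the shuttle factor gene rad-23 (11651261 to 11652906, minus strand), and their log2 fold changes were -0.01 and 0.13.

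Genes that act with the proteasome were read from 4 lists (partners of the proteasome, the SKN-1A pathway, CDC-48 with its cofactors, and ubiquitin with its conjugation). Of 51 such genes 47 were tested, of which 6 rose and 3 fell, or 19.1% called against 42.2% of all tested genes, with a median log2 fold change of 0.13. The count of falls was 5 when no CHX replicate 1 was left out and 1 when CHX replicate 3 was. Among 7 partners, psmd-9 rose. Its human and yeast counterparts are chaperones for assembly of the ATPase ring. It had 29.2, 38.9 and 31.4 CPM without CHX and 46.4, 51.1 and 56.5 CPM with it, without overlap (log2 fold change 0.63, SE 0.162, adjusted p = 0.00477 by edgeR).

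No partner fell by the adjusted test (0 genes with edgeR, DESeq2 or limma-voom), and 2 were lower at an unadjusted p under 0.05. These were dss-1 (-0.26), for a small lid protein, and ubh-4 (-0.25), for a deubiquitinase that docks on the regulatory particle. The deubiquitinase gene usp-14 (0.19), the shuttle factor genes rad-23 (0.13) and ubql-1 (-0.12) and the arsenite-inducible gene aip-1 (-0.29) did not pass. The no CHX level of ubql-1 was high in replicate 3, at 346 CPM against 255 and 246 CPM.

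None of the 6 SKN-1A pathway genes was called (edgeR, DESeq2 and limma-voom 0 genes each, with 1 at an unadjusted p under 0.05). The skn-1 gene had 114, 131 and 138 CPM without CHX and 121, 135 and 122 CPM with it, with overlapping groups (-0.02, interval -0.26 to 0.23). Its footprints are counted over all isoforms, so SKN-1A is not separated from the others. The gene of the protease that cuts SKN-1A, ddi-1, had a log2 fold change of -0.0048 (interval -0.29 to 0.28). The gene of its deglycosylating enzyme, png-1, had 51.4, 54.3 and 53.9 CPM without CHX and 42.5, 41.7 and 40.8 CPM with it. Those groups did not overlap, and the change of -0.35 was just outside the threshold (adjusted p = 0.0518 by edgeR, range over all alternatives 0.0342 to 0.229). The values of sel-1 and sel-11, which act in removal of proteins from the endoplasmic reticulum, were 0.14 and 0.19, and that of wdr-23, a repressor of SKN-1, was 0.22.

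CDC-48 is the ATPase that extracts ubiquitin-tagged proteins and hands them to the proteasome, and worms have a pair of genes for it. The cdc-48.2 gene fell, from 778, 827 and 822 CPM without CHX to 554, 554 and 521 CPM with it (-0.58, SE 0.0871, adjusted p = 4.94e-05 by edgeR). The cdc-48.1 gene had 565, 557 and 592 CPM without CHX and 600.1, 652 and 623 CPM with it, which did not overlap either but did not pass the test (0.13, interval -0.05 to 0.31, adjusted p = 0.249 by edgeR). Reads on cdc-48.2 were 1.38, 1.49 and 1.39 times those on cdc-48.1 without CHX and 0.923, 0.849 and 0.836 times with it. The log2 of this ratio differed by -0.70 between the groups (exact permutation test, two-sided p = 0.1, the smallest that 3 against 3 libraries allow). How reads matching both copies were assigned is not given in the sources used here, and this applies to rpn-6.1 and rpn-6.2 too.

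Of the other CDC-48 cofactor genes 1 was called. The UBX-domain gene ubxn-5 rose from 5.07, 6.86 and 7.30 CPM to 27.9, 24.3 and 27.2 CPM (2.03, SE 0.257, adjusted p = 7.51e-06 by edgeR). The cofactor genes ufd-1, ufd-2 and ufd-3 had values of 0.16, 0.08 and 0.21 and did not pass. The value of ubxn-1 was -0.31 (adjusted p = 0.0503 by edgeR, range over all alternatives 0.0334 to 0.296).

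Of 21 tested genes of ubiquitin and its conjugation, 4 rose and 2 fell, or 28.6% called against 42.2% of all tested genes. The ubiquitin-conjugating enzyme genes ubc-8, ubc-25 and ubc-3 rose the most, with log2 fold changes of 1.19, 0.61 and 0.53. The levels of ubc-8 were 19.03, 17.1 and 16.8 CPM without CHX and 38.6, 37.98 and 43.97 CPM with it. Those of ubc-25, which is the nearest coding gene upstream of pas-5 on the same strand, were 93.9, 108 and 107 CPM without CHX and 148, 171 and 154 CPM with it. Those of ubc-3, the worm CDC34 gene, were 86.3, 88.0 and 80.3 CPM without CHX and 112, 116 and 138 CPM with it. In all 3 the groups did not overlap. Of the 21 tested genes, 7 had CHX above without overlap and 2 had CHX below. The shares over all tested genes were 27.7% and 24.7%.

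The fourth riser, ubc-1 (0.32, adjusted p = 0.0323 by edgeR), lost its call without any single library, the log2 fold change being 0.25 when no CHX replicate 2 was left out and 0.33 when CHX replicate 2 was. The fallers were ubc-26 (-0.58, adjusted p = 0.0196 by edgeR) and ubq-2 (-0.29, adjusted p = 0.0192 by edgeR), which encodes ubiquitin fused to a ribosomal protein. The levels of ubq-2 were 811, 736 and 835 CPM without CHX and 592, 701 and 653 CPM with it. Its call ended without CHX replicate 1 (-0.23) or 3 (-0.29), and that of ubc-26 when no CHX replicate 2 (-0.48) or CHX replicate 2 (-0.54) or 3 (-0.57) was left out. Of 16 alternatives, 4 called ubc-1, 12 ubq-2 and 11 ubc-26, and DESeq2 called neither ubc-1 nor ubc-26. On this list DESeq2 called 3 genes higher and 1 lower, against 4 and 2 by edgeR or limma-voom. The polyubiquitin gene ubq-1 (-0.07), the ubiquitin-activating enzyme gene uba-1 (0.11) and the conjugating enzyme gene let-70 (0.14) did not pass.

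**Figure D5:**
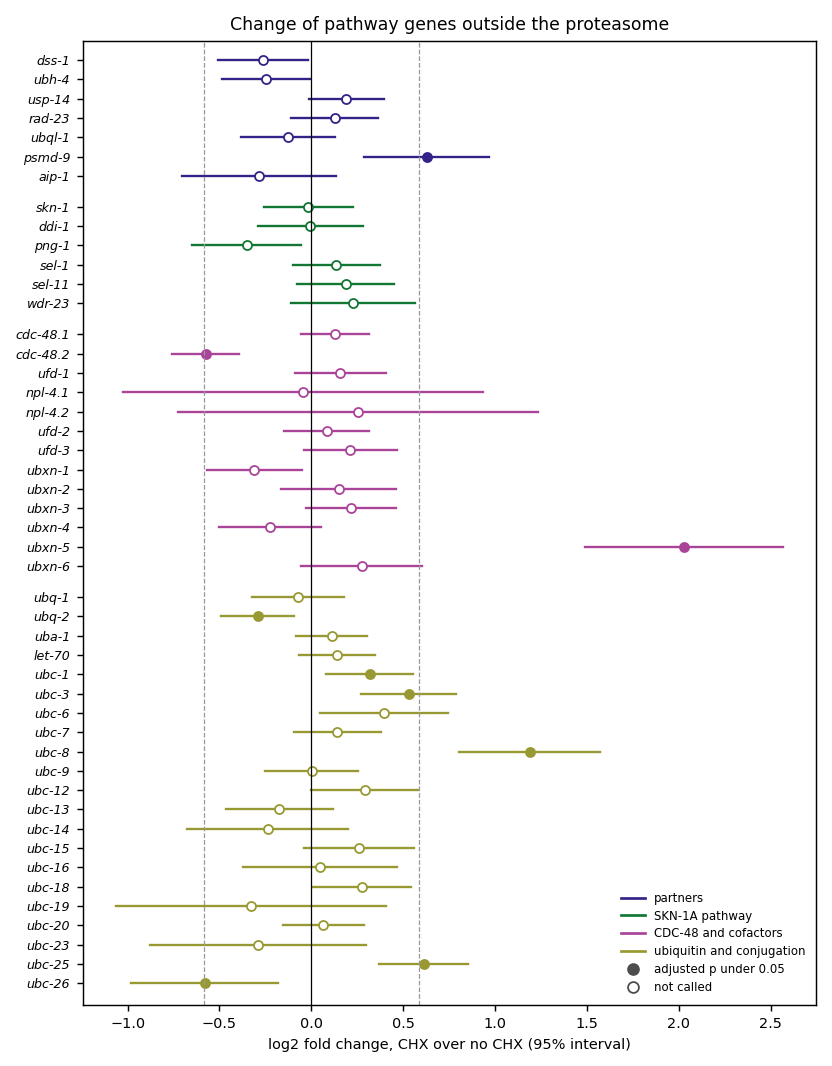
Points give the log2 fold change of CHX over no CHX for the 47 tested genes of the 4 pathway lists, lines the 95% interval, colours the list, and filled points an adjusted p under 0.05. Of the filled points, psmd-9, ubxn-5, ubc-1, ubc-3, ubc-8 and ubc-25 lie to the right of 0 and cdc-48.2, ubq-2 and ubc-26 to the left, and the dashed lines stand at 1.5-fold.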

How the data were processed

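The authors deposited raw counts of footprint reads per gene over coding sequence. Per the labels' protocols, ribosomes were pelleted through 34% sucrose and RNA fragments of 26 to 34 nucleotides were cloned using a kit for small RNA libraries. The submitters' processing notes name DESeq2 and WBcel235. How reads were aligned, and how molecular identifiers, strand and multiple matches were handled, is not given in the sources used here. For nearly all genes the table's length column is the genomic span, introns included, so levels per coding length, which had been planned, were not computed.

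Groups follow the labels, with 3 libraries each. The labels do not say whether a replicate was its own culture, and the p-values then reflect only library-to-library spread, possibly technical. No libraries were near-duplicates (chi-square per degree of freedom 1.89 to 3.35 within groups and 13.8 to 17.1 between). Same-numbered libraries of the groups had deviations from the group means that correlated at -0.11, -0.08 and -0.08, which showed no shared effect of the number. Whether they were processed together is not stated in the labels, and these correlations cannot decide it.

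The test was the quasi-likelihood F test of edgeR 4.0.16 under R 4.3.3 (filterByExpr with minimum count 10, TMM, robust glmQLFit), with group as the only term, and genes were called at a Benjamini-Hochberg adjusted p under 0.05 over 10632 genes. The biological coefficient of variation was 11.1%. The standard error is the absolute log2 fold change over the root of the F statistic. Error is the SD over 3 libraries. The fit was tested on simulated data.

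The members, the pathway lists and the marker lists were chosen with earlier results of these data known. Values in every library are given for called members, the highest and lowest change per subcomplex, and rpn-6.1 and rpn-6.2. From each pathway list, up to 3 called genes per direction and skn-1, ubq-2, cdc-48.1 and cdc-48.2 were named by rule. Other pathway genes, ubc-1 and the values of pbs-5 were chosen after their values were seen. The alternatives changed the scaling (median-of-ratios or upper-quartile factors), the filter (none, or mean CPM from 5 up), the tool (DESeq2 1.42.0, limma-voom from limma 3.58.1), the null hypothesis (a 1.2-fold change) and the model (a replicate block). Others removed the 100 most abundant genes or each library in turn, and 1, added after seeing the data, used library totals without a scaling factor.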

Additional observations from a re-analysis of the deposited data

How the results depend on the processing

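Under all 16 alternatives no proteasome gene rose, and no call among the members or the pathway genes changed direction. The count of 7 fallers was 1 against a 1.2-fold change and 4 to 8 without 1 library (4 without CHX replicate 1). It was 5 with DESeq2, with library totals only and under the replicate block. The block ended the calls of pas-1 (-0.29, adjusted p = 0.0650 by edgeR), pbs-3 (-0.26, 0.0922), ubq-2 (-0.29, 0.0577) and ubc-1 (0.32, 0.0666), whose log2 fold changes were as without it, and no other call among the members and pathway genes. The share of reads was 1.10% without CHX and 1.05% with it when the 100 most abundant genes were left out, by construction of a smaller total. Without 1 library it was 0.871% to 0.918% without CHX and 0.853% to 0.883% with it. Of the pathway genes, 9 were called, 6 to 11 without 1 library and 7 with the replicate block. Risers numbered 10 with library totals only and 5 to 7 without 1 library. Fallers numbered 5 with median-of-ratios factors, 6 with upper-quartile factors, 5 without the 100 most abundant genes, 1 against a 1.2-fold change and 1 to 5 without 1 library (5 when no CHX replicate 1 was left out, 1 when CHX replicate 3 was); the cause was not tested. With library totals only, the median log2 fold change of the members was 0.00 and that of all tested genes 0.10. Standard errors of the members other than rpn-6.2 were 0.0922 to 0.1197 on the log2 scale. Changes of a few percent were therefore not detectable with these libraries.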

Other observations

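Several pathway genes had too few reads to be read. The ubiquitin-conjugating enzyme genes ubc-17, ubc-21, ubc-22 and ubc-24 did not pass the filter on low counts, and ubc-21 had no read in any of the 6 libraries. The CDC-48 cofactor genes npl-4.1 and npl-4.2 were tested but had standard errors of 0.465 and 0.461 on the log2 scale, with levels from 2.54 to 6.86 CPM and 2.54 to 10.1 CPM without CHX.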
